A study of Thunnus thynnus with 30 samples.

Results

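The 9 genes described here serve the epidermis, the outer cell layer of the skin, and its barrier: Krt17, Tp63, Evpl, PPL, Aloxe3, PRSS8, ABCA12, S100A3 and S100A6. They are 9 of the 7295 rows of a count table from bluefin tuna (Thunnus thynnus), made from RNA of whole larvae, and were taken by row name. Members other than PRSS8 and ABCA12 were chosen by their measured difference between high and low DHA at 15 days post hatch (dph). S100A3 and S100A6 were also chosen by the average of that difference over all ages. What led to the choice of PRSS8 and ABCA12 is not recorded, and the same 15 dph basis was assumed for them. Their tests in other libraries may thus not be independent of the choice. Levels and differences of the members in the 15 dph high and low libraries are therefore given as a description, with no test. The same holds for the DHA differences of S100A3 and S100A6 at every age.

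DHA is docosahexaenoic acid, an essential polyunsaturated fat of marine fish larvae. The prey were rotifers of the species Brachionus rotundiformis holding 2 (low), 3.6 (medium) or 10.9 (high) mg of DHA per g dry weight. All larvae were labelled WT and every diet held DHA, so differences are given relative to low DHA or to the next lower level. RNA came from whole larvae of 5, 10 and 15 dph, 3 tanks were run per treatment, and the labels do not say how many larvae made up a sample. The 26 libraries form 9 groups of age and DHA level with 3 libraries each, except for 2 (replicates 2 and 3) in high DHA at 5 dph.

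The epidermis is a layered epithelium. Its basal cells depend on the transcription factor p63, its cells are held together by keratin filaments and by junctions that plakin proteins anchor, and its outer face is sealed by lipids, proteases and tight junctions. In mammals ABCA12 loads lipids into secretory granules, and ALOXE3 acts with ALOX12B on linoleate-bearing ceramides. PRSS8 encodes prostasin, a membrane-anchored protease that works in one cascade with matriptase (ST14). Fish skin stays alive to its surface and does not form the dead outer layer of land vertebrates, so roles known from mammals are given as background only.

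Library totals ran from 12805866 to 19169404 counts, and 7292 rows passed the filter on low counts, all 9 members among them. Levels are CPM, counts scaled to a common library size with TMM factors, which adjust for differences in RNA composition between libraries. No gene lengths come with the table, so levels are compared between groups and not between genes. A length score was computed for each library as the mean log2 CPM of 34 rows of very long genes minus that of 42 rows of short respiratory chain genes. It was lowest in 10 dph low DHA (mean -3.41, range -4.07 to -2.81) and 5 dph medium DHA (mean -3.14, range -3.57 to -2.70), and its mean lay between -2.64 and -2.08 in the other 7 groups. In whole larvae, fewer cells of a type and less RNA per cell cannot be told apart.

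Names are used as the table gives them, and how they were assigned to tuna genes is not given in the sources used here. Evpl and PRSS8 have rows whose names differ only in capitals, EVPL and Prss8, and reads of 1 gene may be split between such rows. A list of 13 keratinocyte marker names matched 4 members and 5 other rows (KRT14, PKP1, DSP, PERP and EVPL). None of these 5 rows was at 0 in all libraries, and their sum ran from 108 to 284 CPM per library.

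Tp63, the p63 transcription factor gene, had 20.8, 16.1 and 16.2 CPM in low DHA at 5 dph, 12.3, 11 and 15.0 in medium and 19.2 and 18.2 in high DHA. In larvae of 10 dph it had 15.0, 11.9 and 10.6 CPM in low, 21.5, 17.6 and 21.4 in medium and 21.4, 25.9 and 20.3 in high DHA. In those of 15 dph it had 21.7, 11.5 and 13.7 CPM in low, 23.4, 20.0 and 24.2 in medium and 25.7, 31.8 and 30.0 in high DHA. All medium libraries lay below all low ones at 5 dph, and all medium and high libraries lay above all low ones at 10 dph. At 15 dph all high libraries lay above all others, while low replicate 1 stood within the medium range.

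Krt17 encodes a keratin of epithelial intermediate filaments. It had 40.4, 37.3 and 37.4 CPM in low DHA at 5 dph, 31.3, 33.9 and 30.8 in medium and 52.0 and 40.3 in high DHA. At 10 dph Krt17 had 71.2, 79.1 and 84.2 CPM in low, 85.6, 89.3 and 98.5 in medium and 76.7, 86.5 and 101 in high DHA. At 15 dph the values were 71.7, 69.8 and 74.1 CPM in low, 121, 108 and 106 in medium and 154, 133 and 112 in high DHA. The 15 dph low libraries lay within or just below the range of the 10 dph low ones, and the 15 dph medium and high libraries all lay above every 10 dph library.

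Evpl and PPL encode envoplakin and periplakin, plakins that partner in the cornified envelope of mammals and link it to desmosomes and keratin. Evpl had 162, 167 and 159 CPM in low DHA at 5 dph, 133, 118 and 162 in medium and 175 and 157 in high DHA. At 10 dph Evpl had 125, 116 and 133 CPM in low, 189, 203 and 236 in medium and 167, 169 and 152 in high DHA. At 15 dph Evpl had 170, 179 and 158 CPM in low, 195, 186 and 162 in medium and 276, 246 and 260 in high DHA. By group mean Evpl was thus lowest in low DHA at 10 dph and highest in high DHA at 15 dph.

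PPL averaged 313 ± 7.46 CPM in low DHA at 5 dph, 286 ± 44.3 in medium (SD, n = 3 each) and 312 ± 20.4 in high DHA (n = 2). At 10 dph PPL had 237, 245 and 238 CPM in low, 330, 350 and 391 in medium and 319, 300 and 296 in high DHA. At 15 dph PPL had 293, 309 and 290 CPM in low, 335, 333 and 325 in medium and 479, 394 and 471 in high DHA. Over the 26 libraries the log2 CPM of Evpl and PPL had a Pearson r of 0.957, and of 0.808 once group means were taken off. These libraries share ages, diets and length scores, and the r is a description.

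The barrier lipid genes Aloxe3 and ABCA12 differed from each other. Aloxe3, the gene of an epidermal lipoxygenase, had 59.3, 54.0 and 56.0 CPM in low DHA at 5 dph, 32.2, 44.1 and 38.0 in medium and 43.6 and 39.9 in high DHA. At 10 dph Aloxe3 had 23.0, 20.6 and 35.7 CPM in low, 27.3, 28.7 and 31.6 in medium and 26.5, 25.8 and 27.0 in high DHA. At 15 dph Aloxe3 had 18.1, 15.8 and 14.9 CPM in low, 24.1, 22.9 and 28.2 in medium and 44.8, 44.0 and 34.8 in high DHA. The low DHA libraries were thus the highest of their age at 5 dph and the lowest at 15 dph, and at 10 dph they spanned the range of the medium and of the high libraries, with low replicate 3 the highest of that age.

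ABCA12 had 269, 272 and 311 CPM in low DHA at 5 dph, 167, 138 and 241 in medium and 277 and 286 in high DHA. At 10 dph ABCA12 had 182, 137 and 223 CPM in low, 321, 277 and 409 in medium and 281, 316 and 256 in high DHA. At 15 dph ABCA12 had 301, 275 and 252 CPM in low, 273, 285 and 262 in medium and 449, 421 and 383 in high DHA. Low and medium DHA overlapped at 15 dph and both lay below high DHA. ABCA12 was the member whose level moved most closely with the length score over the 26 libraries (Pearson r 0.829, a description), and Aloxe3 the one that moved least closely (0.162).

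PRSS8 had 46.4, 49.7 and 50.8 CPM in low DHA at 5 dph, 35.5, 42.2 and 41.3 in medium and 61.4 and 53.0 in high DHA. At 10 dph PRSS8 had 87.5, 125 and 96.6 CPM in low, 140, 148 and 168 in medium and 130, 137 and 137 in high DHA. At 15 dph PRSS8 had 88.9, 115 and 103 CPM in low, 166, 173 and 173 in medium and 187, 188 and 168 in high DHA. Medium and high DHA overlapped at 15 dph and both lay above low DHA. The row Prss8 had a different course: its group means ran from 8.53 CPM in high DHA at 15 dph to 15.4 CPM in medium DHA at 5 dph.

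S100A3 and S100A6 encode small calcium-binding proteins; in mammals S100A3 is known from the hair cuticle. S100A3 had the fewest counts of the members, 39 to 442 per library. It had 3.00, 2.82 and 3.13 CPM in low DHA at 5 dph, 4.93, 5.05 and 3.00 in medium and 5.37 and 4.75 in high DHA. At 10 dph S100A3 had 4.10, 5.86 and 3.76 CPM in low, 11.1, 7.41 and 8.04 in medium and 4.06, 10.2 and 7.17 in high DHA. At 15 dph S100A3 had 10.0, 7.93 and 5.29 CPM in low, 9.31, 9.63 and 11 in medium and 24.7, 23.8 and 16.4 in high DHA, where all high libraries lay above all others.

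S100A6 had 78.9, 77.2 and 70.7 CPM in low DHA at 5 dph, 84.2, 148 and 82.0 in medium and 118 and 106 in high DHA. At 10 dph S100A6 had 92.6, 125 and 84.4 CPM in low, 149, 191 and 185 in medium and 101, 167 and 156 in high DHA. At 15 dph S100A6 had 172, 133 and 103 CPM in low, 186, 187 and 164 in medium and 394, 350 and 280 in high DHA. Both S100 genes were lowest in low DHA at every age by their group means, and their Pearson r over the 26 libraries was 0.955 (0.695 with group means taken off).

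**Figure D1:**
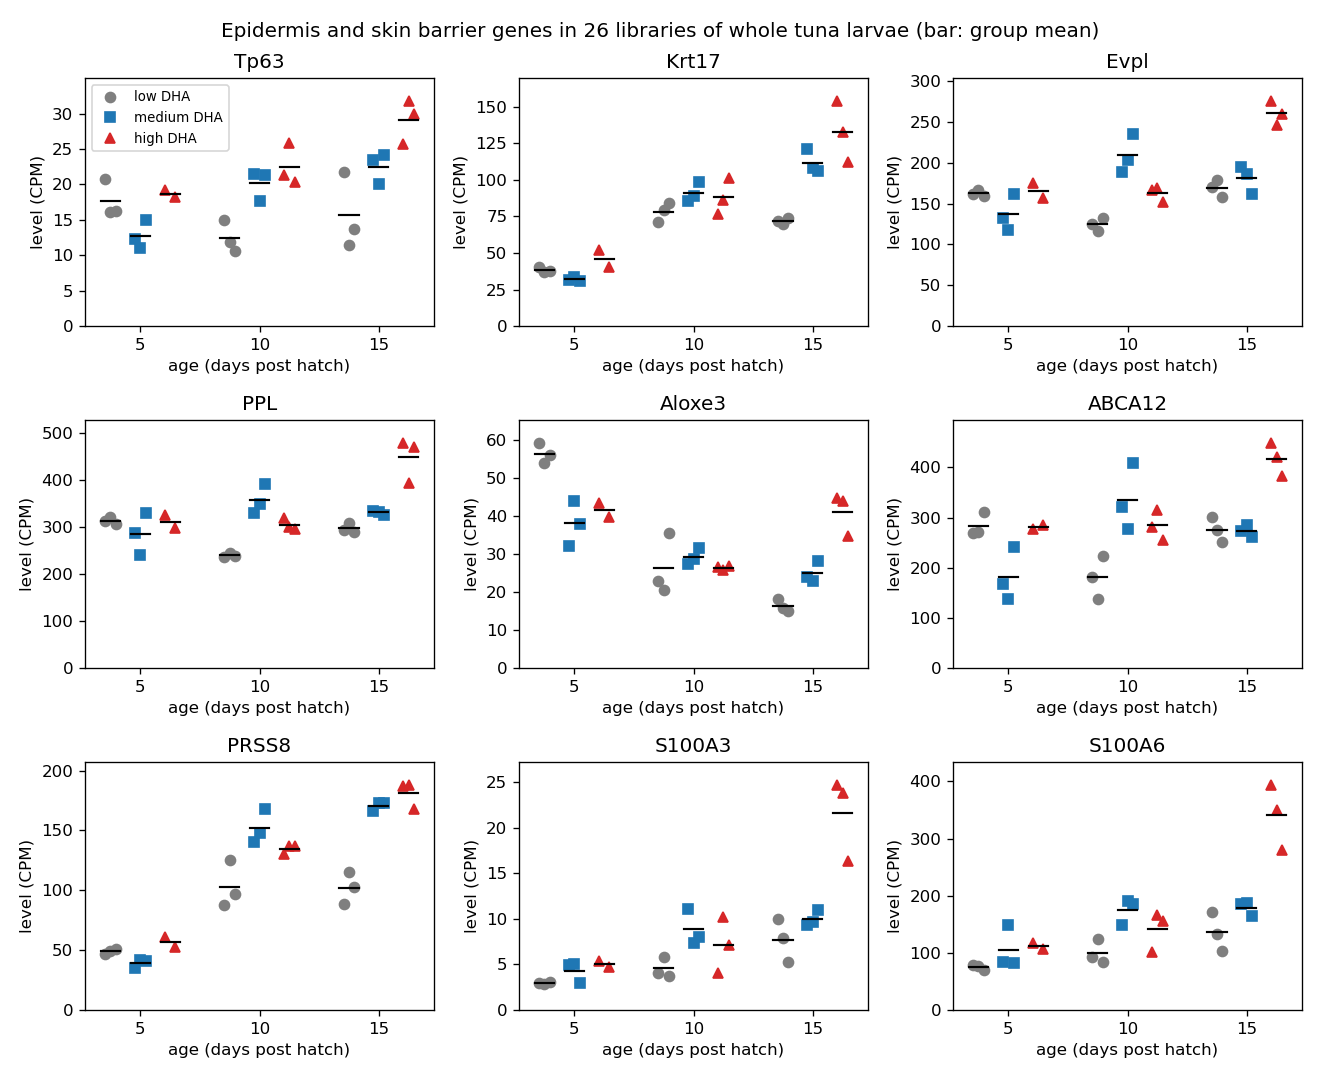
Level (CPM, linear axes from 0) of the 9 genes against age in days post hatch, 1 point per library, with low, medium and high DHA as circles, squares and triangles and a bar at each group mean. At 15 dph the high DHA libraries lie above the low DHA libraries in all 9 panels, and Aloxe3 starts highest in low DHA at 5 dph.

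The order of the 9 groups was set by mean CPM, and neighbours in it were compared by whether their libraries overlapped. High DHA at 15 dph was the highest group for 8 members and stood apart from the next group for Tp63, Evpl, PPL, S100A3 and S100A6. For Krt17, PRSS8 and ABCA12 its libraries overlapped with those of the next group (medium DHA at 15 dph for Krt17 and PRSS8, medium DHA at 10 dph for ABCA12). For Tp63 the next group was medium DHA at 15 dph, and high DHA at 10 dph did overlap with high DHA at 15 dph. Its replicate 2 at 10 dph had 25.9 CPM, and replicate 1 at 15 dph had 25.7 CPM. The members were chosen for being higher in high than in low DHA at 15 dph (assumed for PRSS8 and ABCA12). The top rank of that group thus follows in part from the choice, and the share of all rows with it was not computed. For Aloxe3 low DHA at 5 dph was highest, at 56.4 ± 2.68 CPM (SD, n = 3), apart from high DHA at 5 dph. The lowest group was 10 dph low DHA for Tp63, Evpl, PPL and ABCA12, 5 dph medium DHA for Krt17 and PRSS8, 5 dph low DHA for S100A3 and S100A6 and 15 dph low DHA for Aloxe3. For Tp63, Evpl, PPL, ABCA12 and S100A3 the lowest group overlapped with the next, 5 dph medium DHA (ABCA12 means 181 and 182 CPM). For Krt17, PRSS8, S100A6 and Aloxe3 it stood apart from the next. The highest group mean was 1.86 times the lowest for PPL, 2.09 times for Evpl, 2.31 times for ABCA12 and 2.33 times for Tp63. It was 3.47 times for Aloxe3, 4.17 times for Krt17, 4.51 times for S100A6, 4.56 times for PRSS8 and 7.26 times for S100A3.

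High DHA was compared with low DHA at 5 dph to ask whether the genes that stood higher in high DHA at 15 dph already differed in the youngest larvae. None of the 7 members tested passed the edgeR quasi-likelihood test with Benjamini-Hochberg adjustment over all 7292 rows at a threshold of 0.05, and 0.0823% of all rows did. DESeq2 called 0 of the 7 as well, and at an unadjusted p under 0.05 there was 1, Aloxe3, which stood lower in high DHA. No share of all rows is given for these counts. Aloxe3 averaged 41.7 ± 2.58 CPM in high DHA (SD, n = 2) and 56.4 ± 2.68 in low DHA (n = 3), a log2 fold change of -0.43 ± 0.17 (SE, edgeR adjusted p = 0.37). Krt17 stood at 0.27 ± 0.13 (adjusted p = 0.46) and PRSS8 at 0.23 ± 0.13 (adjusted p = 0.52). Tp63, Evpl, PPL and ABCA12 stood between -0.01 and 0.08. S100A3 and S100A6 had log2 fold changes of 0.76 ± 0.33 and 0.57 ± 0.24, with the high libraries above the low ones for both and for PRSS8, as in 29.6% of all rows. Aloxe3 lay below, as did 24.7%. With only the 5 compared libraries in the fit, 2 members passed, PRSS8 as higher (edgeR adjusted p = 0.039) and Aloxe3 as lower (adjusted p = 0.00038). The 0.0823% of all rows belongs to the fit of all 26 libraries, and the share in the smaller fit is not given here.

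Both barrier lipid genes were lower in medium than in low DHA at 5 dph. ABCA12 and Aloxe3 fell, 2 of the 7 members tested, and none rose, where 10.4% of all rows were called lower and 16.7% higher. ABCA12 averaged 182 ± 53.2 CPM in medium and 284 ± 23.8 in low DHA (SD, n = 3 each; log2 fold change -0.64 ± 0.17, SE, edgeR adjusted p = 0.011). Aloxe3 averaged 38.1 ± 5.95 CPM in medium and 56.4 ± 2.68 CPM in low DHA (-0.57 ± 0.15, adjusted p = 0.010). PRSS8 (-0.31 ± 0.12, adjusted p = 0.054), Tp63 (-0.47 ± 0.19, adjusted p = 0.064), Evpl (-0.24 ± 0.10, adjusted p = 0.091) and Krt17 (-0.26 ± 0.12, adjusted p = 0.10) did not pass. All medium libraries lay below all low libraries for Krt17, Tp63, Aloxe3, PRSS8 and ABCA12, as in 19.5% of all rows, and above them for S100A6, as in 26.2%. The length score averaged -3.14 in medium DHA, against -2.08 in low DHA. Once it was added to the fit 0 members passed, with ABCA12 at -0.14 and Aloxe3 at -0.56. Of 8 marker sums 3 did not overlap between medium and low DHA, with 5 skeletal muscle rows at 30300 to 39000 CPM in medium and 26900 to 28700 CPM in low DHA and 4 pigment cell rows at 305 to 368 CPM in medium and 290 to 295 CPM in low DHA. The 5 keratinocyte rows that are not members summed to 164 to 188 CPM in medium and 201 to 207 CPM in low DHA. By group mean PERP, DSP and EVPL were lower in medium than in low DHA. PKP1 (42.6 CPM in medium and 39.8 CPM in low DHA) and KRT14 (6.78 and 5.93 CPM) were higher. The part of these markers in the members' values was not tested. Without medium replicate 2 the count was 0, and without medium replicate 3 it was 6, all lower. For these refits and the one with the length score, shares of all rows are not given. S100A3 and S100A6 had log2 fold changes of 0.53 ± 0.31 and 0.47 ± 0.22.

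High with medium DHA at 5 dph gave 0 called members, and 0% of all rows were called. At an unadjusted p under 0.05 there were 5 members, all higher in high DHA, and DESeq2 called 2. The share of all rows is not given for these counts. Krt17 had a log2 fold change of 0.53 ± 0.13 and PRSS8 of 0.53 ± 0.13 (SE, edgeR adjusted p = 0.15 for both). Krt17, Tp63, PRSS8 and ABCA12 had both high libraries above all medium libraries, as did 19.1% of all rows. Without medium replicate 3 the count was 4, all higher, again with no share of all rows given.

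At 10 dph 5 of the 7 members tested rose in high DHA relative to low DHA and none fell, while 19.4% of all rows were called higher and 4.39% lower. Tp63 rose most, with 22.5 ± 2.99 CPM in high and 12.5 ± 2.27 in low DHA (SD, n = 3 each; log2 fold change 0.84 ± 0.19, SE, edgeR adjusted p = 0.0037). ABCA12 averaged 284 ± 30.2 CPM in high and 181 ± 43.2 in low DHA (0.65 ± 0.17, adjusted p = 0.0093). Evpl (0.38 ± 0.10, adjusted p = 0.012), PRSS8 (0.38 ± 0.11, adjusted p = 0.017) and PPL (0.34 ± 0.09, adjusted p = 0.013) rose as well. Krt17 (0.17 ± 0.11, adjusted p = 0.29) and Aloxe3 (0.00 ± 0.15, adjusted p = 1) did not pass. The libraries did not overlap for the 5 genes that rose, against 20.7% of all rows with high above low. The median log2 fold change of the 7 was 0.38, and that of all rows 0.01. S100A3 and S100A6 had log2 fold changes of 0.64 ± 0.28 and 0.49 ± 0.22, with overlapping libraries.

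Medium DHA differed from low DHA at 10 dph for the same 5 genes; both comparisons use the same low libraries. Here 24.3% of all rows were called higher and 10.6% lower. Evpl averaged 210 ± 24.1 CPM in medium and 125 ± 8.57 in low DHA (SD, n = 3 each; log2 fold change 0.75 ± 0.11, SE, edgeR adjusted p = 7.6e-05). ABCA12 rose by 0.89 ± 0.17 (adjusted p = 0.00039), PPL by 0.57 ± 0.09 (adjusted p = 0.00016), PRSS8 by 0.56 ± 0.11 (adjusted p = 0.00053) and Tp63 by 0.69 ± 0.19 (adjusted p = 0.0058). Krt17 (0.22 ± 0.11, adjusted p = 0.14) and Aloxe3 (0.14 ± 0.15, adjusted p = 0.50) did not pass. Unlike PRSS8, the row Prss8 did not pass at 10 dph in medium (-0.07 ± 0.12, edgeR adjusted p = 0.7) or high over low DHA (-0.09 ± 0.12, adjusted p = 0.64). In medium over low DHA at 5 dph Prss8 stood at 0.31 ± 0.12 (adjusted p = 0.054), and PRSS8 at -0.31 ± 0.12. S100A3 and S100A6 had log2 fold changes of 0.96 ± 0.28 and 0.80 ± 0.22, and together with the 5 genes and Krt17 they had all medium libraries above all low ones, as did 26.8% of all rows.

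The length score moved with these 10 dph differences, and averaged -3.41 ± 0.63 with low DHA, -2.38 ± 0.17 with medium DHA and -2.64 ± 0.24 with high DHA (SD, n = 3 each). With it as a covariate PRSS8 alone of the 7 passed for high with low DHA (0.59, edgeR adjusted p = 0.035), and PRSS8 (0.83, adjusted p = 0.020) and Evpl (0.53, adjusted p = 0.035) passed for medium with low. ABCA12 was then at 0.27 for high and 0.38 for medium with low DHA, and Tp63 at 0.60 and 0.35 in these comparisons. The part of the score in the differences was not tested otherwise. Of the 8 marker sums 4 did not overlap between medium and low DHA. Skeletal muscle rows (5) had 27800 to 37600 CPM in medium and 41400 to 48200 CPM in low DHA. Dermal fibroblast rows (4) had 2210 to 3960 CPM in medium and 4420 to 5240 CPM in low DHA, and gut epithelium rows (8) had 1940 to 2160 CPM in medium and 2180 to 2270 CPM in low DHA. The 5 keratinocyte rows that are not members had 231 to 258 CPM in medium and 108 to 167 CPM in low DHA. In high DHA these keratinocyte rows had 185 to 228 CPM, above low DHA, while the sums of the other 7 cell types overlapped between high and low DHA. By group mean PERP, DSP and EVPL were higher in high than in low DHA. PKP1 (28.7 CPM in high and 30.9 CPM in low DHA) and KRT14 (1.49 and 2.72 CPM) were lower. In medium DHA KRT14 (1.44 CPM) alone of the 5 rows was lower than in low DHA. The part of these markers was not tested. Without low replicate 2, 2 members rose in high DHA, without low replicate 3 there were 3 and without high replicate 2 there were 2; for medium with low DHA, leaving out 1 library gave 5 or 6. With only the high and low libraries of 10 dph in the fit, 1 member rose in high DHA. No shares of all rows are given for the refits in this paragraph, so these changes in count cannot be set against them.

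**Figure D2:**
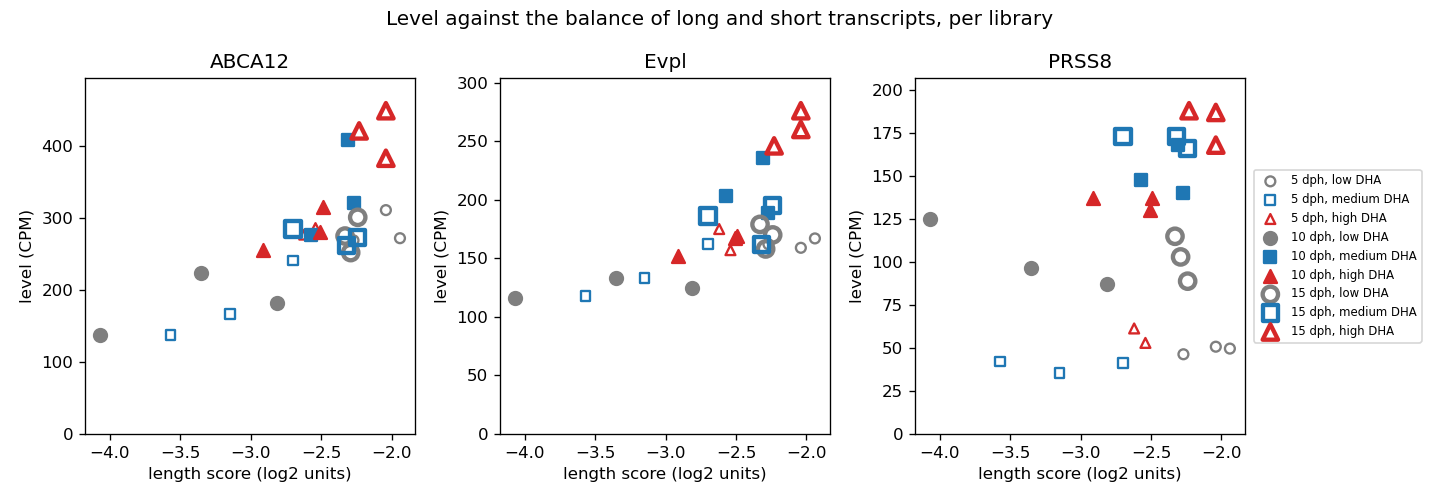
Level (CPM) of ABCA12, Evpl and PRSS8 against the length score of each library, 1 point per library, with the marker shape and color for the DHA level and filled points for 10 dph. The 10 dph low DHA libraries lie at the left, from -4.07 to -2.81, with low ABCA12 and Evpl, while for PRSS8 all 5 dph libraries lie below all later ones and those of 10 and 15 dph overlap.

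High DHA was set against medium DHA at 10 dph to see whether the larger dose added to the difference. None of the 7 members passed and 0.137% of all rows did. At an unadjusted p under 0.05 there were 2 members, both lower in high DHA, and DESeq2 called 1. Shares of all rows for these counts are not given. Evpl averaged 163 ± 9.17 CPM in high and 210 ± 24.1 in medium DHA (SD, n = 3 each; log2 fold change -0.37 ± 0.10, SE, edgeR adjusted p = 0.11), and PPL stood at -0.23 ± 0.09 (adjusted p = 0.24). Evpl, PPL, Aloxe3 and PRSS8 had all high libraries below all medium libraries, as did 11.7% of all rows. Without medium replicate 1 the count was 1, lower in high DHA, again with no share of all rows given. Group means increased from low over medium to high DHA for 1 of 9 members at 10 dph, Tp63, where 10.9% of all rows did so.

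Whether the difference from low DHA changed between 5 and 10 dph was tested directly. For high with low DHA none of the 7 members passed, against 18.1% of all rows. The largest values were those of Tp63 (0.77 ± 0.28, SE, edgeR adjusted p = 0.054) and ABCA12 (0.66 ± 0.26, adjusted p = 0.069). There were 4 members at an unadjusted p under 0.05, all with a higher difference at 10 dph, and 3 called by DESeq2. Shares of all rows for these counts are not given. By the adjusted edgeR test 13.6% of all rows were called higher and 4.53% lower. The count was 1 without 10 dph low replicate 1, and 2 without 10 dph low replicate 3 or high replicate 3, with no share of all rows given. For medium with low DHA, a test added after the levels had been seen, all 7 members passed, each with a higher difference at 10 dph than at 5 dph, with 22.7% of all rows called higher and 20.5% lower. The change was largest for ABCA12 (1.54 ± 0.24 on the log2 scale, adjusted p = 6.1e-05), Tp63 (1.15 ± 0.26, adjusted p = 0.0013) and Evpl (0.99 ± 0.15, adjusted p = 4.8e-05). The length score was lowest in 5 dph medium and 10 dph low DHA, and with it in the fit 0 of the 7 passed. The values of ABCA12 (0.52), Tp63 (0.49), Evpl (0.55) and PPL (0.42, against 0.70 without the score) were then smaller. Those of PRSS8 (1.39, against 0.87 without the score) and Krt17 (0.80, against 0.48) were larger, and that of Aloxe3 was 0.70, against 0.71 without the score.

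Age was compared over libraries of 5 and 10 dph, averaged over the DHA levels. Of 9 members 4 rose (Krt17, PRSS8, S100A3 and S100A6) and 1 fell (Aloxe3), where 26.7% of all rows rose and 31.3% fell. PRSS8 rose by 1.42 ± 0.07 on the log2 scale (SE, edgeR adjusted p = 3.9e-13) and Krt17 by 1.16 ± 0.07 (adjusted p = 1.8e-11). S100A3 rose by 0.71 ± 0.17 (adjusted p = 0.0013) and S100A6 by 0.50 ± 0.13 (adjusted p = 0.0026). Aloxe3 fell by 0.71 ± 0.09 (adjusted p = 9.4e-07), with the 10 dph libraries below the 5 dph libraries at each DHA level (34.1%, 19.5% and 29.6% of all rows did so in low, medium and high DHA). Tp63, Evpl, PPL and ABCA12 did not pass, at 0.14, 0.06, -0.03 and 0.08. For these 4 genes the 10 dph libraries lay below the 5 dph libraries in low DHA and above them in medium DHA, where 18.7% of all rows lay above. Krt17, PRSS8, S100A3 and S100A6 lay above in low and in medium DHA (36.4% of all rows in low). The row Prss8, unlike PRSS8, fell by 0.35 ± 0.07 (adjusted p = 0.00030).

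From 10 to 15 dph the test was made in medium DHA, whose libraries did not enter the choice of members as far as it is recorded. None of the 9 passed, where 32.8% of all rows did. Krt17 came nearest, with 112 ± 8.05 CPM at 15 dph and 91.1 ± 6.63 at 10 dph (SD, n = 3 each; log2 fold change 0.29 ± 0.11, SE, edgeR adjusted p = 0.051). It was the 1 member at an unadjusted p under 0.05, and DESeq2 called 1 member, with shares of all rows not given. Its 15 dph libraries lay above its 10 dph libraries, as in 23.5% of all rows, and without 10 dph replicate 3 the count was 1. In low DHA, given with no test, Aloxe3 (-0.70) and Krt17 (-0.12) stood lower at 15 than at 10 dph, with PRSS8 at -0.01 and the other 6 members between 0.31 and 0.76. In high DHA, also with no test, all 9 members stood higher at 15 dph, by 0.37 for Tp63 to 1.60 for S100A3. The libraries of the 2 ages did not overlap for 8 of them, all but Tp63 (26.2% of all rows). The 15 dph high and low libraries entered the choice of members (assumed for PRSS8 and ABCA12). These values are thus not independent of the choice, and the count of 8 cannot be compared with the share of all rows.

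At 15 dph the members were chosen for being higher in high DHA (assumed for PRSS8 and ABCA12), so the values that follow describe that choice. All 9 had every high library above every low library, as did 11.3% of all rows, and 2.99% of all rows were called higher and 4.47% lower by edgeR. The log2 fold changes of high over low DHA were 1.48 for S100A3, 1.34 for Aloxe3, 1.33 for S100A6, 0.90 for Tp63, 0.89 for Krt17, 0.82 for PRSS8, 0.62 for Evpl, 0.60 for ABCA12 and 0.59 for PPL. With the length score as a covariate they were 0.51 to 1.54, and the score averaged -2.10 in high and -2.29 in low DHA.

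Medium DHA at 15 dph, a level that did not enter the choice as far as it is recorded, split the members. Its comparisons share the high or the low libraries with that choice and are given with no test. Krt17, PRSS8, Aloxe3 and PPL had all medium libraries above all low libraries, as did 6.68% of all rows, with log2 fold changes of 0.64, 0.74, 0.63 and 0.15. Evpl and ABCA12 stood at 0.10 and -0.01 in medium over low DHA, and at 0.52 and 0.61 in high over medium DHA. PRSS8 and Krt17 stood at 0.08 and 0.26 in high over medium DHA, with overlapping libraries. The other 7 members had every high library above every medium library, as did 18.8% of all rows, with S100A3 at 1.12 and S100A6 at 0.93. Group means increased from low over medium to high DHA for 8 of 9 members, all but ABCA12, and for 13.6% of all rows. The choice of members already set high above low DHA, which was not so for all rows, so this count and this share cannot be compared.

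**Figure D3:**
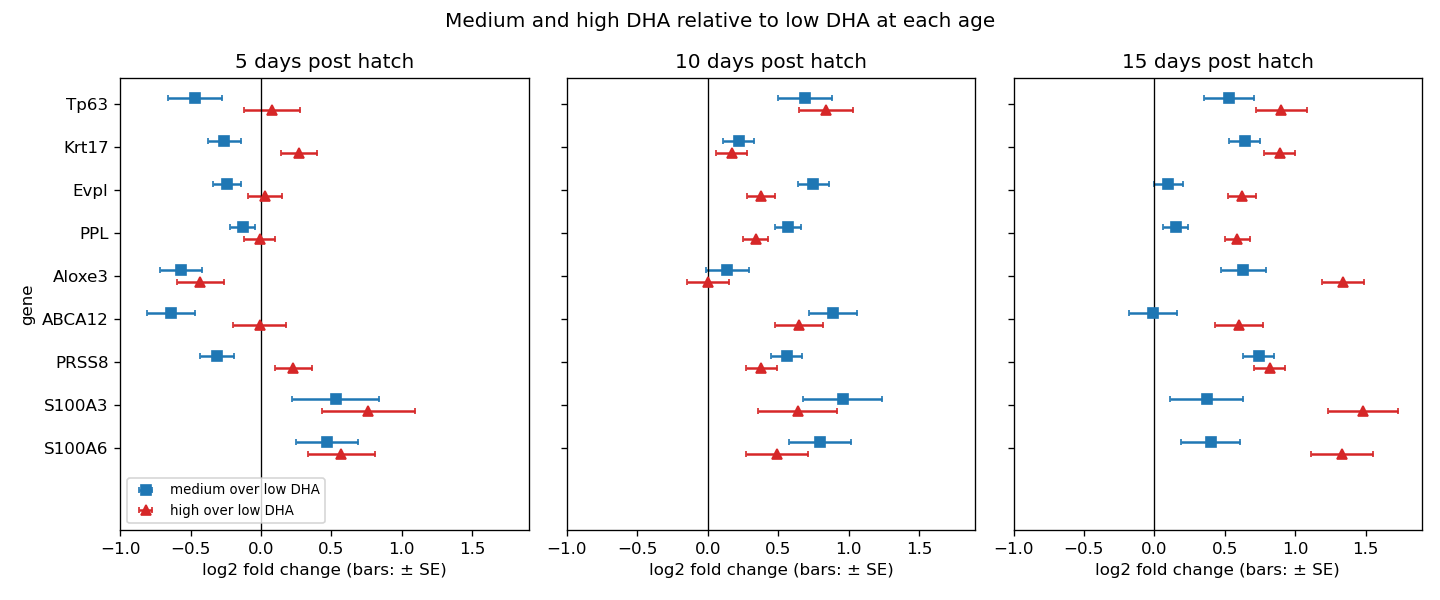
Log2 fold change with its SE of medium (squares) and high DHA (triangles) over low DHA for each of the 9 genes, in 1 panel per age. At 5 dph medium lies left of 0 for 7 genes, at 10 dph medium lies right of high for 8 (all but Tp63), and at 15 dph high lies right of medium for all 9.

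At 15 dph marker genes of other cell types differed as well. Summed levels of 8 gut epithelium rows were 1230 to 1350 CPM in high and 1770 to 2270 CPM in low DHA, and those of 4 liver rows were 17100 to 21800 CPM in high and 26600 to 27300 CPM in low DHA. Sums of 3 mucous cell rows were 72.0 to 87.4 CPM in high and 101 to 110 CPM in low DHA, and sums of 4 pigment cell rows were 183 to 226 CPM in high and 238 to 265 CPM in low DHA. Skeletal muscle (5 rows), dermal fibroblast (4 rows) and ionocyte rows (3 rows) overlapped between high and low DHA. The 5 keratinocyte rows that are not members summed to 241 to 284 CPM in high and 205 to 220 CPM in low DHA. This difference lay mainly in PERP, with group means of 131 CPM in high and 81.9 CPM in low DHA. DSP (61.4 and 61.3) and PKP1 (41 and 40.4) had nearly equal means in high and low DHA. EVPL, which may share reads with the member Evpl, had 28.8 and 25.6 CPM, and KRT14 had 0.768 and 1.5 CPM. No marker row was at 0 in all libraries. The part of these markers in the members' values was not tested.

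Other genes of the epidermis were taken from 8 lists of epithelial genes, in which 74 rows besides the members had counts. The lists were drawn up with earlier results of these data known. At 10 dph 22 of the 74 rows (29.7%) rose in high relative to low DHA and 0 fell, where 19.4% of all rows rose and 4.39% fell. For medium with low DHA 25 rose (33.8%) and 2 fell, where 24.3% of all rows rose and 10.6% fell. With the length score in the fit the counts were 0 for high and 6 for medium DHA. For high with low DHA 5 rows rose without low replicate 2, 10 without high replicate 2 and 6 in a fit to the compared groups alone. For these refits and those with the length score, shares of all rows are not given. Desmosome and plakin genes had the largest median of the 8 lists: 6 of 8 rows rose in medium DHA, with a median of 0.85, among them the p63 target PERP (0.89 ± 0.13, SE, edgeR adjusted p = 7.6e-05), epiplakin (EPPK1, 1.31 ± 0.27, adjusted p = 0.00065) and desmoglein (Dsg2, 0.99 ± 0.21, adjusted p = 0.00087). The row EVPL rose too (0.85 ± 0.20, adjusted p = 0.0017), as Evpl did. In high relative to low DHA at 10 dph EVPL did not pass (0.48 ± 0.20, edgeR adjusted p = 0.081), while Evpl did. At 15 dph, with no test, EVPL stood at 0.17 ± 0.19 in high over low DHA with overlapping libraries, and Evpl at 0.62. Of 14 tight junction rows 6 rose, with the claudins Cldn23 (1.06 ± 0.15) and Cldn8 (0.96 ± 0.15) and the adhesion molecule F11R (0.90 ± 0.14) at the smallest p. None of 4 keratin rows and 1 of 12 S100 and annexin rows (S100A16, 0.51 ± 0.10) rose.

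At 15 dph 15 of the 74 rows (20.3%) rose in high relative to low DHA and 6 (8.11%) fell, where 2.99% of all rows rose and 4.47% fell. The members were chosen by this same comparison, and the lists were drawn up with earlier results known. The counts and p-values of list rows in this comparison, here and for the barrier lipid genes, are therefore descriptions and no independent support. The median log2 fold change of the 74 was 0.02, and that of all rows 0. Transcription factors of the epidermis rose in 4 of 8 rows, with a median of 0.56: the grainyhead genes GRHL1 (0.76 ± 0.13, SE, edgeR adjusted p = 0.0014) and GRHL2 (0.52 ± 0.10, adjusted p = 0.0029; the row grhl2 rose as well) and Tfap2c (0.60 ± 0.12, adjusted p = 0.0038). Of 8 desmosome and plakin rows 1 rose, PERP (0.67 ± 0.13, adjusted p = 0.0030). Among tight junction rows 5 of 14 rose, led by Cldn8 (0.79 ± 0.14) and Cldn23 (0.80 ± 0.15), and CLDN15, known in mammals from the gut, fell (-0.59 ± 0.13). St14, a row named for the matriptase that activates prostasin, rose (0.56 ± 0.15, adjusted p = 0.022), and the protease inhibitor SERPINB1 fell (-0.63 ± 0.15, adjusted p = 0.013). The row ST14, whose name differs from St14 only in capitals, averaged 1.68 CPM in high and 1.87 CPM in low DHA and did not pass. In medium relative to low DHA at 10 dph the row ST14 fell (-0.88 ± 0.32, edgeR adjusted p = 0.032), while St14 rose (0.87 ± 0.16, adjusted p = 0.00026).

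Barrier lipid genes were divided at 15 dph, with 2 of 12 rows higher and 3 lower. ALOX12B, whose enzyme acts before ALOXE3 in mammals, had 9.85, 11 and 2.86 CPM in high and 0.216, 1.72 and 0.0518 CPM in low DHA (log2 fold change 3.55 ± 0.70, SE, edgeR adjusted p = 0.0038). Its libraries spread widely within each group, and it was at most 4.01 CPM at 5 and 10 dph. ABHD5, a lipase activator, rose (0.64 ± 0.16, adjusted p = 0.018). The sulfotransferase gene Sult2b1 (-0.65 ± 0.16, adjusted p = 0.013) and the fatty acid elongase gene ELOVL1 (-0.34 ± 0.09, adjusted p = 0.016) fell, as did Aldh3a2, a fatty aldehyde dehydrogenase gene. None of 4 keratin rows other than Krt17 passed, and KRT14, a basal keratin in mammals, averaged 0.768 CPM in high and 1.5 CPM in low DHA. Over the 74 rows of all 8 lists, 15 rose and 6 fell in high relative to low DHA at 15 dph with all libraries in the fit. Of these 74 rows 8 rose and 2 fell without low replicate 2, and 9 rose and 1 fell without high replicate 2. A fit to the compared groups alone gave 6 higher and 0 lower of the 74. No shares of all rows are given for these refits.

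**Figure D4:**
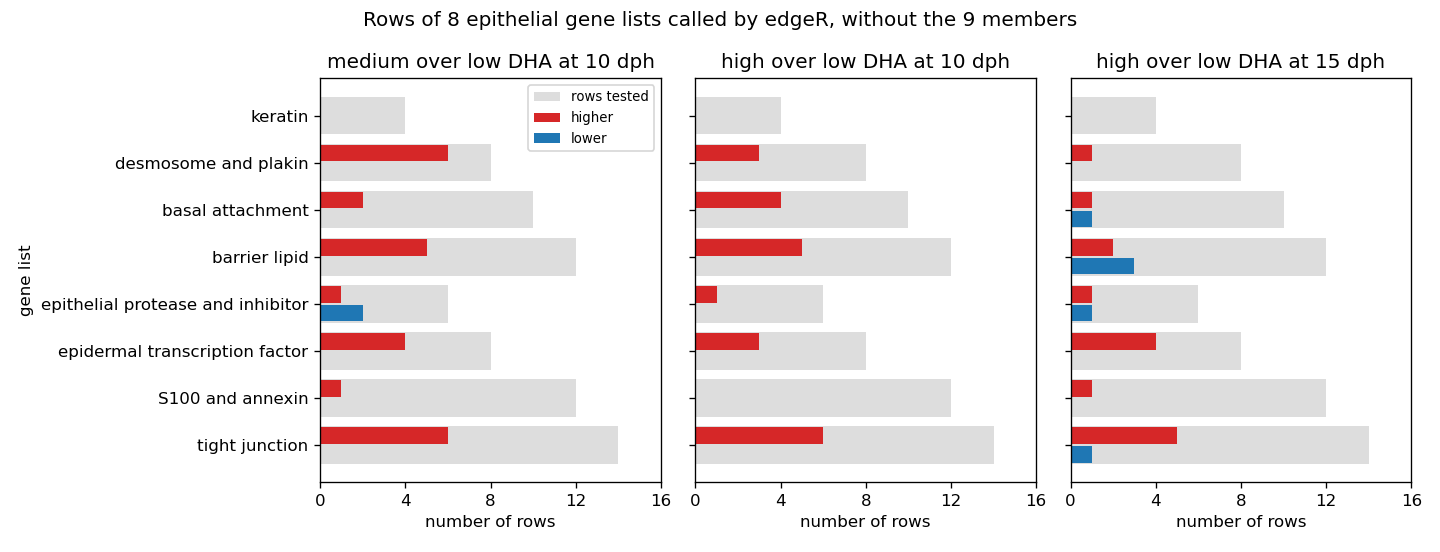
Number of rows in 8 epithelial gene lists (gray bars, rows tested, without the 9 members) and of those called higher (red) or lower (blue) by edgeR in medium over low DHA at 10 dph, high over low at 10 dph and high over low at 15 dph. In medium DHA at 10 dph 6 of 8 desmosome and plakin rows and 6 of 14 tight junction rows are higher, and in high DHA at 15 dph 4 of 8 transcription factor rows and 5 of 14 tight junction rows.

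With age, the 8 lists went in different directions between 5 and 10 dph. Of the 74 rows 27 rose (36.5%) and 18 fell (24.3%), where 26.7% of all rows rose and 31.3% fell. Among 12 S100 and annexin rows 8 rose and 0 fell, with ANXA13 (0.41 ± 0.06, SE), ANXA6 (0.63 ± 0.09) and ANXA11 (0.34 ± 0.05) at the smallest p. Tight junction rows fell in 7 of 14, with Cldn4 at -0.97 ± 0.11 and cgn, the gene of cingulin, at -0.39 ± 0.08, while Cldn18, a claudin of stomach and lung in mammals, rose by 3.02 ± 0.23. KRT14 fell by 1.64 ± 0.22 (edgeR adjusted p = 2.4e-06), and krt8 (0.43 ± 0.06) and krt13 (0.39 ± 0.07) rose. The anchoring fibril collagen gene Col7a1 rose by 1.36 ± 0.12 from 5 to 10 dph and by 1.36 ± 0.18 from 10 to 15 dph in medium DHA.

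Rows whose pattern was most like the members' were ranked by the Pearson correlation of log2 CPM over the 26 libraries with the mean of the z-scored members, among rows of at least 5 CPM on average. The 10 nearest were fut11 (0.950), ZBED1 (0.934), PERP (0.906), MYH9 (0.906), Mslnl (0.899), CD68 (0.896), CRYBG2 (0.895), paqr7b (0.889), TP73 (0.884) and ZNF185 (0.884). All 10 had their highest group mean in high DHA at 15 dph, as most members did, and ranking by likeness to the members favored such rows. Mslnl averaged 418 CPM there and 234 CPM in low DHA at 15 dph. The members fell into several patterns by this measure. Krt17 and PRSS8 were most like each other (0.975, but 0.385 with group means taken off), and both were nearest to Ccl28 (0.964 and 0.943) and Hk2. Evpl and ABCA12 (0.911 with each other) had Mslnl nearest (0.924 and 0.964), and so did PPL after Vwa7 (0.866 and 0.868). Tp63 was nearest to TP73, a gene of the same family (0.896), whose reads may be shared with it, and to PERP (0.885). S100A3 and S100A6 were nearest to Trim25 (0.931 and 0.934) and TRIM16. Aloxe3 was nearest to msrb1 (0.845) and CLDN4 (0.836), and its r with PRSS8 was -0.442. These libraries share ages and diets, so the values are descriptions.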

How the data were processed

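The authors deposited raw counts per row name, all of them whole numbers, and the submitters' processing notes name DESeq2 without a version. The sources used here do not give the aligner, counter, assembly or annotation. The 4 internal control samples were not analysed here. Rows were filtered with filterByExpr (7292 of 7295 kept), scaled by TMM and tested in R 4.3.3 with edgeR 4.0.16 (quasi-likelihood F-test, robust, two-sided, 1 mean per group, all 26 libraries), with Benjamini-Hochberg adjustment over all tested rows and a threshold of 0.05. SE are the log2 fold change divided by the root of F; log2 CPM for scores used a prior count of 2. The fit was tested on simulated data first. CPM and the length score were computed from the counts. Members and lists were chosen with earlier results of these data known. Named are the 9 members and, per list and comparison, up to 3 rows of smallest adjusted p among those that passed. EVPL and Prss8 are named as rows that differ from members only in capitals. At 15 dph grhl2, CLDN15, ABHD5, Aldh3a2, KRT14, ST14, DSP and PKP1 were named after their values were seen. Likeness was ranked among rows of at least 5 CPM on average. The labels give 3 tanks per treatment without tying a library to a tank, so p measures the spread between these libraries, which may be technical. Alternatives were RLE scaling, no filter, DESeq2 1.42.0, other sets of libraries, a replicate block, the length score as a covariate and summed rows.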

Additional observations from a re-analysis of the deposited data

Results flagged for a closer look

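The difference between DHA levels went in opposite directions at different ages for several members, in every library of the groups compared. For Aloxe3, high DHA lay below low DHA at 5 dph (log2 fold change -0.43) and above it at 15 dph (1.34), and medium DHA lay below low at 5 dph (-0.57) and above it at 15 dph (0.63). Medium DHA lay below low at 5 dph and above it later for Krt17 (-0.26 at 5 dph, 0.22 at 10 dph and 0.64 at 15 dph) and PRSS8 (-0.31, 0.56 and 0.74). The same held between 5 and 10 dph for Tp63 (-0.47 and 0.69) and ABCA12 (-0.64 and 0.89). High DHA lay below medium at 10 dph and above it at 15 dph for Evpl (-0.37 and 0.52), PPL (-0.23 and 0.44) and Aloxe3 (-0.14 and 0.71), and for PRSS8 above it at 5 dph (0.53) and below it at 10 dph (-0.18). The differences in this paragraph that involve 15 dph, and those of high with medium DHA, were not tested as changes between ages. The share of all rows that changed sides was not computed. Of all rows 19.5% had medium below low at 5 dph and 26.8% had medium above low at 10 dph. Krt17 at 5 and 10 dph, Tp63 and PRSS8 at 5 dph, and Aloxe3 in high with low DHA at 5 dph did not pass. Neither did the high with medium differences at 5 and 10 dph. The side of Aloxe3 in high with low DHA at 15 dph follows from the choice of members. The other 15 dph differences named here share the high or the low libraries with that choice and are not independent of it.

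For medium with low DHA the change from 5 to 10 dph was tested, after the levels had been seen, and passed for all 7 members with edgeR: ABCA12 (1.54), Tp63 (1.15), Evpl (0.99), PRSS8 (0.87), Aloxe3 (0.71), PPL (0.70) and Krt17 (0.48). Of all rows 22.7% were called higher and 20.5% lower in this test. With the length score as a covariate 0 of the 7 passed, at 0.52 for ABCA12, 0.49 for Tp63, 0.55 for Evpl, 1.39 for PRSS8, 0.70 for Aloxe3, 0.42 for PPL and 0.80 for Krt17. The part of that score in the change was not tested further.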

How the results depend on the processing

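The number of members called was recomputed under each alternative. For 10 with 5 dph it was 5 in every one that was run. Shares of all rows called under the alternatives are not given here, so a change in count cannot be set against them. The shares of called rows given above come from the main edgeR fit to all 26 libraries. RLE scaling gave 4 members for medium with low DHA at 5 dph, and 1 each for 15 with 10 dph in medium DHA and for the 5 to 10 dph change of high over low. DESeq2 gave 5 for medium with low DHA at 5 dph, 2 for high with medium at 5 dph, 1 for high with medium at 10 dph, 1 for 15 with 10 dph and 3 for the 5 to 10 dph change of high over low. Fits to the compared groups alone gave 2 for high with low and 1 for medium with low DHA at 5 dph, 1 for high with low at 10 dph, 1 for 15 with 10 dph and 4 for the 5 to 10 dph change of high over low. With the length score the counts were 0 for medium with low DHA at 5 dph, 1 for high with low and 2 for medium with low at 10 dph, 1 for 15 with 10 dph and 0 for the change of the medium to low difference. Without the libraries of lowest TMM factor (10 dph low replicate 2 and 5 dph medium replicate 2) they were 3 for high with low DHA at 10 dph and 1 for 15 with 10 dph. The cause of these changes was not tested. Leaving out 1 library gave 0 to 0 for high with low DHA at 5 dph, 0 to 6 for medium with low and 0 to 4 for high with medium at 5 dph, and 2 to 5, 5 to 6 and 0 to 1 for the same comparisons at 10 dph. It gave 5 to 5 for 10 with 5 dph, 0 to 1 for 15 with 10 dph, 0 to 2 for the 5 to 10 dph change of high over low and 5 to 7 for that of medium to low. A replicate block by title number gave 3 members for medium with low DHA at 5 dph, 5 for high with low at 10 dph, and changed no count by over 1.5 times; with the 5 dph high library titled 3 taken as number 1, the 5 to 10 dph change of high over low gave 1. Deviations of same-numbered libraries from their group means correlated at -0.25 to 0.31 between groups of the same age and -0.15 to 0.30 between groups of the same DHA level. All 3 pairs were over 0.1 for 15 with 10 dph in high DHA (0.15, 0.30 and 0.22) and for medium with low DHA at 15 dph (0.16, 0.16 and 0.11), both given without a test. The 2 pairs of 10 with 5 dph in high DHA had 0.18 and 0.17. The numbers were not taken to pair libraries in the tested comparisons. No tested member value changed sign while called. Fold changes at 15 dph stayed positive under all alternatives. S100A3, with 39 counts in its lowest library, is the member most limited by depth.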
